A study of Mus musculus with 6 samples.

Results

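MicroRNA genes that lie away from protein-coding promoters were examined for H3K4me3 in STHdh cells, conditionally immortalised striatal progenitor lines from the mouse. The members were the GENCODE M21 genes of the type miRNA on chromosomes 1 to 19 whose 5′ start lay more than 1 kb from every start of a protein-coding transcript. There were 1833 such genes among 2054 microRNA genes, out of 51229 annotated genes of all types on those chromosomes. A member was called marked in a list when an H3K4me3 peak lay within 1 kb of the start of the annotated precursor. The strength of a mark was the percentile of the strongest such peak among all peaks of that list, so that 100 is the strongest peak of the list.

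There were 6 peak lists, 1 for each condition, and all cells had been held for 24 h in medium without serum. Q7SST was the wild-type line (STHdhQ7) with vehicle, and Q111SST was the line homozygous for a knocked-in expansion of the glutamine repeat of huntingtin (STHdhQ111) with vehicle. The other 4 lists were STHdhQ111 cells given 10 uM cyproheptadine, loxapine, diacylglycerol kinase inhibitor II (DKI) or meclizine. The labels give the strain of both lines as C57BL/6, and each genotype was 1 line, so that genotype and line cannot be told apart. Since every condition had a single list, a difference between conditions could not be set against replicate error and was not tested, and whether the triplicate treatments were pooled is not stated. The score of a peak was the authors' own, and the read depth behind each list is unknown here.

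A microRNA is a short RNA of which bases 2 to 8, the seed, pair with target messenger RNAs and lower their translation or stability. It is cut in the nucleus by Drosha and in the cytoplasm by Dicer from a longer primary transcript, whose promoter is often a host gene's or lies kilobases upstream of the annotated precursor. H3K4me3 is found at active and poised promoters, so a peak near the precursor start may mark the primary transcript's own promoter or that of a neighbouring gene, and an unmarked member can still be transcribed.

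The lists carried the machinery of the pathway. Of 20 genes for microRNA processing and silencing, 19 were marked within 1 kb of a start in all 6 lists, among them Drosha, Dgcr8, Dicer1 and Ago2. Lin28a, which blocks let-7 maturation in stem cells, was marked in none. Lin28b, which also blocks it, was marked in all 6, at percentiles from 27.4 with cyproheptadine to 80.4 in Q7SST. Of all 20757 protein-coding genes, 53.9% were marked in all 6 by the same rule. Of 6 neural progenitor genes, 2 were marked in all 6 lists, and of 12 genes of the striatal lineage 5 were, with the dopamine receptor genes Drd1 and Drd2 in none. Some of these markers differed between the lines. Of the 12 striatal genes, 10 were marked in Q7SST and 6 or 7 in each mutant list, with Gsx2, Bcl11b and Tac1 in Q7SST alone. Among the progenitor genes, Nes was at a percentile of 90.7 in Q7SST and 41.9 in Q111SST, and Sox2 was unmarked in Q7SST and at 65.6 in Q111SST. The striatal gene Foxp1 was at 64.0 in Q7SST and 84.6 in Q111SST. Other markers were close in both, such as Vim at 54.7 in each and Dlx1 at 89.1 and 88.6. Their part in the differences between the lines at microRNA genes was not tested. Of 10 genes of other cell types, 7 were marked in no list and Col1a1, a collagen gene, in all 6. Of the rest, Cdh1 was marked in Q7SST alone, at 23.7, and Mbp with meclizine alone, at 4.42.

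The mature sequences of the families on which the results turned are given first, from RefSeq on GRCm38.p6, 5′ to 3′ with the seed in capitals. Of the members, 821 had an entry there, and of those marked in any list 129 did. The let-7 family slows proliferation and was represented by 1 marked gene, and the 6 microRNAs of the Mir17 cluster, which favour proliferation, fall into 4 seeds.
let-7i-5p: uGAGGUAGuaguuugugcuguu
miR-17-5p: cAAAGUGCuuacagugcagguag
miR-20a-5p: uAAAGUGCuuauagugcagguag
miR-18a-5p: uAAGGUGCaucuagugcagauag
miR-19a-3p: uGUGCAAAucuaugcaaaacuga
miR-19b-3p: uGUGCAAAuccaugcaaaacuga
miR-92a-3p: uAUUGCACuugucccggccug
Members of the following families lay at several loci, or were marked unequally between the lines. The copies of miR-125b, miR-29b and miR-138 have 1 mature sequence each at 2 loci, miR-34a and miR-34b share a seed, and miR-132 shares its seed with miR-212.
miR-125b-5p: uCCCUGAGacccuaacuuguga
miR-29a-3p: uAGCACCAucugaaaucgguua
miR-29b-3p: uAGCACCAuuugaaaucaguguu
miR-29c-3p: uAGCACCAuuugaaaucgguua
miR-138-5p: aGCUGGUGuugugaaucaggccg
miR-34a-5p: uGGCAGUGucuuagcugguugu
miR-34b-5p: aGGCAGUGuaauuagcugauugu
miR-199a-5p: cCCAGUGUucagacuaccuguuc
miR-199a-3p: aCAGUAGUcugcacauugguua
miR-199b-3p: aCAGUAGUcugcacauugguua
miR-132-3p: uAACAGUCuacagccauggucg
miR-212-3p: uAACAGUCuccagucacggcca
miR-10a-5p: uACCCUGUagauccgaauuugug
miR-10b-5p: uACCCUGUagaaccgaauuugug
The microRNA-344 family lies in 1 long cluster on chromosome 7 and has diverged in its seeds.
miR-344-3p: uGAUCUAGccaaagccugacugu
miR-344c-3p: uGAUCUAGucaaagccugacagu
miR-344b-3p: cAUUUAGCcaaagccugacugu
miR-344d-3p: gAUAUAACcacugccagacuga
miR-344e-3p: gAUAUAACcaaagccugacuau
miR-344h-3p: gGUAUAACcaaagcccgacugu
The 3 genes for miR-9, a microRNA of neural progenitors, give the same mature sequence, and their hairpins are shown with the miR-9-5p arm in capitals.
Mir9-1: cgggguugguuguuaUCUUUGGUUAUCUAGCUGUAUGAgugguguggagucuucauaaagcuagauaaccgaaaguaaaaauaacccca
Mir9-2: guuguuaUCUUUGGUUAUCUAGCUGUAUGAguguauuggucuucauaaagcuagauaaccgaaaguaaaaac
Mir9-3: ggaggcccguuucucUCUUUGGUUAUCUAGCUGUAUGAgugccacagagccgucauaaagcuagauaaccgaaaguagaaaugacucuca

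Most members had no mark. A peak lay within 1 kb of 149 members in Q7SST (8.13%, 95% Wilson interval 6.96% to 9.47%) and of 147 in Q111SST (8.02%, 6.86% to 9.35%). With the compounds, 152 members were marked with loxapine (8.29%, 7.12% to 9.64%), 140 with meclizine (7.64%, 6.51% to 8.94%), 115 with DKI (6.27%, 5.25% to 7.48%) and 112 with cyproheptadine (6.11%, 5.10% to 7.30%). The intervals cover counting error only, and members that share a peak are not independent. The 2 lowest shares came from the 2 shortest lists, with 30758 peaks for DKI and 33721 for cyproheptadine against 40406 for Q111SST. When each list was held to its strongest 30758 peaks, the shares came to 6.87% in Q111SST, 6.71% in Q7SST, 6.55% with meclizine, 6.44% with loxapine and 5.95% with cyproheptadine, beside 6.27% with DKI, so that cyproheptadine had the lowest. Over the 6 lists, 211 members (11.5%) were marked in any, 88 (4.80%) in all 6 and 58 in a single list, and 1622 were marked in none.

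The share of members marked stood above the share of the genome that peaks reach. Of all bases more than 1 kb from a coding start, 4.02% lay within 1 kb of a peak in Q111SST and between 2.67% (DKI) and 4.45% (loxapine) over the 6 lists, below the interval of the members in each list. Long intergenic noncoding RNA (lincRNA) genes chosen by the same distance rule were marked more often, at 12.5% of 4850 in Q111SST (11.6% to 13.5%), and the intervals of the 2 gene types did not overlap in any list. Processed pseudogenes were marked less often, at 4.76% of 8865 in Q111SST (4.34% to 5.22%). Small nucleolar RNA genes, at 9.28% of 1369 (7.85% to 10.9%), and small nuclear RNA genes, at 7.31% of 1259 (6.00% to 8.88%), had intervals that overlapped that of the microRNA genes. The 221 microRNA genes within 1 kb of a coding start, which are not members, were marked at 71.04% in Q111SST.

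**Figure D1:**
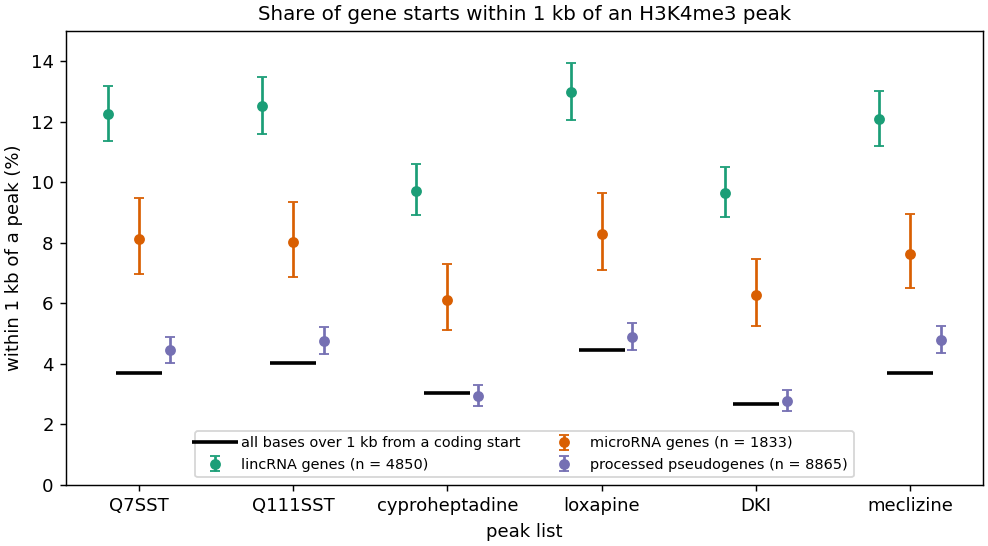
Share of gene starts within 1 kb of an H3K4me3 peak (y axis, percent) in each of the 6 peak lists (x axis), for microRNA, lincRNA and processed pseudogene starts more than 1 kb from a coding start; points are shares, bars are 95% Wilson intervals and black dashes are the share of all bases more than 1 kb from a coding start. The microRNA genes lie between 6.11% and 8.29%, under the lincRNA genes and above the dashes in every list.

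The distance rule left members close to a coding promoter in the set. The members just outside the limit were Gm27445 at 1003 bp, Mir10b at 1004 bp and Mir483 at 1022 bp from a coding start, and those just inside, which were left out, were Gm24083 at 980 bp, mmu-mir-7650 at 981 bp and Mir6971 at 994 bp. In Q111SST, 42.0% of the 81 members at 1 to 2 kb were marked, against 14.4% of 216 at 2 to 5 kb, 5.96% of 503 at 5 to 20 kb, 7.23% of 553 at 20 to 100 kb and 2.5% of 480 beyond 100 kb. The peak at a marked member covered a coding start for 38 of 147 members in Q111SST, and for between 21.5% (Q7SST) and 28.7% (DKI) of marked members over the lists. Those peaks were stronger and wider than the rest. In Q111SST they had a median percentile of 75.2 and a median width of 2159 bp, while the other marked members had 55.5 and 1141 bp.

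Members in exons of long noncoding genes were marked more often than those in introns of coding genes, with intervals that did not overlap in any list. In Q111SST, 23.7% of the 76 members in an exon of a long noncoding gene were marked, with an interval of 15.5% to 34.4%, against 7.35% of the 830 in an intron of a coding gene (5.76% to 9.33%) and 6.33% of the 632 outside genes (4.68% to 8.50%). Of the 95 members in an intron of a long noncoding gene, 10.5% were marked in Q111SST (5.82% to 18.3%) and 21.1% in Q7SST (14.1% to 30.3%), and the intervals overlapped. The shares there were 5.26% with cyproheptadine and 3.16% with DKI, under those of coding introns in the same lists. Of the 20 marked in Q7SST, 6 lie in the microRNA-344 region described below. Genes that carry a Mir symbol were marked more often than those with a provisional Gm symbol, at 10.7% of 960 and 4.95% of 869 in Q111SST. The largest cluster, with 119 members in an intron of Sfmbt2, had no mark in any list.

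Members marked in all 6 lists lay in sequence richer in CG dinucleotides than unmarked members, while the median of those marked in a single list was near that of the unmarked. Counted over 1 kb either side of the start, the median was 40.5 for the 88 members marked in all 6 lists, 24 for the 123 marked in 1 to 5, 20.5 for the 58 of these marked in 1, and 20 for the 1622 marked in none. Of the 40 members with 80 or more, 72.5% were marked in any list (57.2% to 83.9%) and 50.0% in all 6 (35.2% to 64.8%). Of the 605 members with 10 to 19, 5.62% were marked in any list (4.05% to 7.75%) and 1.16% in all 6. The 212 members with fewer than 10 were marked in any list at 8.49% (5.44% to 13.02%), above the bin from 10 to 19 but with an overlapping interval, and in all 6 at 0.472%. Members marked in all 6 lists without a peak over a coding start had a median of 38, against 41 for those with one. Repeats, as masked in the reference, took a median of 14.8% of the window in the 88 members marked in all 6 lists and 24.99% in the unmarked members.

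**Figure D2:**
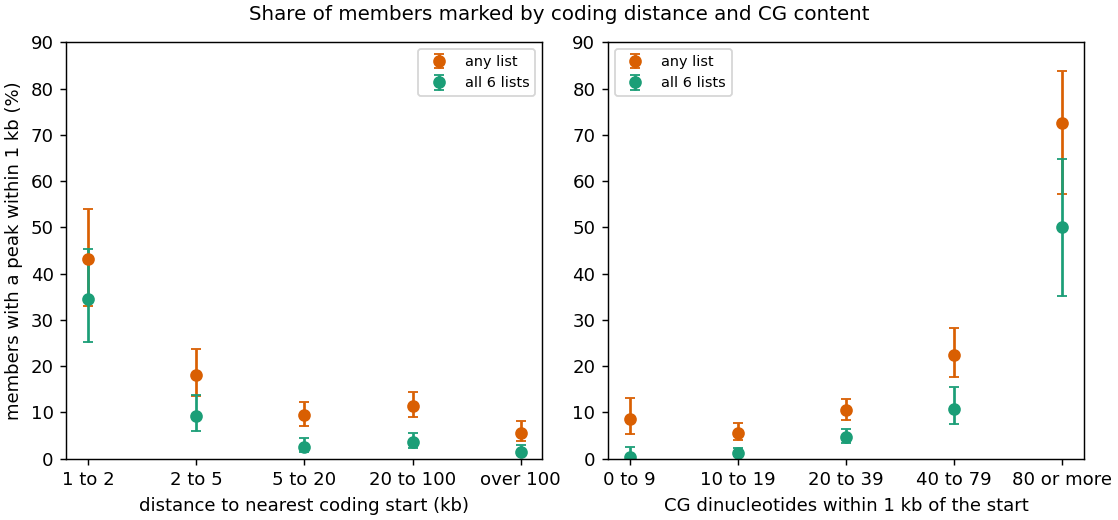
Share of members with a peak within 1 kb (y axes, percent) by distance to the nearest coding start in kb (left) and by the number of CG dinucleotides within 1 kb of the start (right), for any list and for all 6 lists; bars are 95% Wilson intervals. The share in any list is 72.5% at 80 or more CG dinucleotides and lowest, at 5.62%, from 10 to 19, and by distance it falls from the bin at 1 to 2 kb to the one at 2 to 5 kb.

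The strongest constant mark was at Mirlet7i, the gene of let-7i, which lies outside genes on chromosome 10 at 90301 bp from the nearest coding start. Its percentile was 97.9 in Q7SST and 98.7 in Q111SST, and among the compounds 99.2 with meclizine, 98.8 with loxapine, 98.1 with cyproheptadine and 96.9 with DKI. No list stood apart from the rest, and the peak lay 347 to 429 bp from the precursor start in all 6. The 300 bases from 200 upstream to 99 downstream of the precursor start are shown on the gene's strand, with each CG in capitals.
Mirlet7i, chr10:122985625-122985924, minus strand: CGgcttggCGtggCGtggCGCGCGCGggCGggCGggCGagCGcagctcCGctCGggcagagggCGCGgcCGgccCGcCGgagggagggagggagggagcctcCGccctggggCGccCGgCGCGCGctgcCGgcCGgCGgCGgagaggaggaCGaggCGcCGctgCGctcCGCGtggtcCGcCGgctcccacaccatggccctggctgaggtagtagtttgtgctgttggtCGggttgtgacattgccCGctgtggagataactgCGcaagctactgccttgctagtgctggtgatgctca
This window held 39 CG dinucleotides, and 6 of all members had as many or more, while 89.9% of members had at least 1 and the median was 3. Of the 10 members with the let-7 seed, Mirlet7i was the 1 that was marked.

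Other members marked in all 6 lists with high mean percentiles lay both in coding genes and outside genes. Mir7240 in Mast3 had a mean percentile of 95.7, Mir6992 in Stx5a 94.3, Mir1931 in Cdk17 90.5 and Mir7236 in Rab40b 89.9. These 4 lay between 1047 and 1895 bp from a coding start. Outside genes, the leading members were n-TStga1, a gene named as a transfer RNA in a histone gene cluster, at 97.2, Gm47299 at 93.4, Mir7228 at 91.5 and Gm44341 at 89.5.

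Growth and p53-linked microRNAs formed the longest list. Of its 58 members, 21 were marked in any list (36.2%, beside 11.5% of all members) and 14 in all 6 (24.1%, beside 4.80%). For all members with a Mir symbol the shares were 14.2% and 6.67%. Members that share a peak are counted separately, as in the Mir17 cluster, with 6 members marked in any list and 4 in all 6. Mir21a, which is abundant in proliferating cells and lies in Vmp1, had percentiles of 59.6, 68.0, 61.7, 70.0, 70.4 and 62.1 in Q7SST, Q111SST, cyproheptadine, loxapine, DKI and meclizine, in that order here and below. Mir22 had 71.5, 68.5, 60.2, 66.8, 48.9 and 67.1, and Mir210, a target of hypoxia signalling, 69.5, 58.3, 62.4, 59.5, 53.5 and 62.1. Neither gene set the wild-type list apart from the mutant lists by as much as 25 percentile points. For Mir30a the wild-type list was the highest at 71.5, against 33.5 to 54.7 in the mutant lists.

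The Mir17 cluster sat beside a single peak over its host gene Mir17hg. The percentile at Mir17 was 79.7, 86.2, 74.3, 74.8, 77.2 and 81.9, and the same peak served Mir18, Mir19a and Mir20a in all 6 lists. The distance from this peak to Mir19b-1 was 876 to 1044 bp and to Mir92-1 998 to 1166 bp, so that Mir19b-1 was counted as marked in 4 lists and Mir92-1 in Q111SST alone. The calls at these 2 genes thus record where the edge of 1 peak was called, whose percentile lay between 74.3 and 86.2 in the 6 lists.

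The marks of the neuronal list were mostly not shared by all peak lists, as over all members, where 88 of the 211 marked were in all 6. Of its 37 members, 9 were marked in any list (24.3%, beside 11.5% of all members). Mir129-2 alone was marked in all 6 (2.70%, beside 4.80% of all members), at 64.5, 71.1, 71.5, 69.5, 64.8 and 64.0. Mir129-1, which has the same mature miR-129-5p, was marked only with meclizine, at 9.13. Mir132 and Mir212, induced by neuronal activity and lying together in 1 transcript, were marked in Q7SST at 44.4, in Q111SST at 30.9, with loxapine at 3.40 and with meclizine at 10.8. They were unmarked with cyproheptadine and DKI, where the nearest peak lay 2744 and 2779 bp from Mir132. Mir124a-3, a copy of the neuronal miR-124, was marked in Q7SST alone at 7.83, and the other copies Mir124a-1 and Mir124a-2 in no list.

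At the genes for miR-9 the marked copy differed between the lines. Mir9-1, in the noncoding gene Gm3764 on chromosome 3, was marked in Q7SST alone, at a percentile of 46.4 under a peak of 2649 bp that covered the precursor start. In the 5 mutant lists the nearest peak lay 4665 to 5030 bp away. Mir9-2, in C130071C03Rik on chromosome 13, was marked in the 5 mutant lists at 53.9, 33.5, 64.5, 49.9 and 52.2, each peak covering the start, while in Q7SST the nearest peak lay 2987 bp away. Mir9-3 was unmarked in all 6 lists, with the nearest peak at 8828 bp or more.

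The windows of 300 bases at the 3 starts are shown with each CG in capitals, since the copies that differ in their marks share the mature sequence.
Mir9-1, chr3:88215398-88215697, plus strand: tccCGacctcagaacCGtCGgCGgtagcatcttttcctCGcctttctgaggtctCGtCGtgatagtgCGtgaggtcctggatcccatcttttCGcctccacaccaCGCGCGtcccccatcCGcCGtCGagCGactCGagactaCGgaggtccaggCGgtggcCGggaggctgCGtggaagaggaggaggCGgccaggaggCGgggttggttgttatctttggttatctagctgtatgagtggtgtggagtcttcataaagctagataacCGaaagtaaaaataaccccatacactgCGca
Mir9-2, chr13:83738614-83738913, plus strand: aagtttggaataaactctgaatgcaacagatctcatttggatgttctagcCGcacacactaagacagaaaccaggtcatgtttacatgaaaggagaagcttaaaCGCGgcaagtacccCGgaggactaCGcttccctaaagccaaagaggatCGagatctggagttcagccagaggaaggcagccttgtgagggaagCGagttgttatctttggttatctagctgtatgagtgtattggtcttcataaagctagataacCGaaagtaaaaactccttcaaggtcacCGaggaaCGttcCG
Mir9-3, chr7:79505064-79505363, plus strand: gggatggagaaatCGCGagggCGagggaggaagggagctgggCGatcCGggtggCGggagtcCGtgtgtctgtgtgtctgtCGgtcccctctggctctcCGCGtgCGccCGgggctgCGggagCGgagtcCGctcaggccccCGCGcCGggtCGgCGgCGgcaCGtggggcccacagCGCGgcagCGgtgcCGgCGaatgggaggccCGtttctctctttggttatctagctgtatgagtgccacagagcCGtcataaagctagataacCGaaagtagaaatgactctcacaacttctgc
They held 25, 11 and 30 CG dinucleotides, and of all members 1.47%, 11.6% and 0.982% had as many or more. The copy with the most, Mir9-3, had no mark in these lists.

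Other copies of 1 mature sequence were likewise marked at 1 locus and not at another. Mature sequences shared by 2 or more member loci numbered 38, of which 8 had a copy marked in some list and a copy marked in none. Mir125b-1 was marked in all 6 lists at 18.6, 49.1, 53.4, 58.1, 49.9 and 45.5, and Mir125b-2 in none. At Mir125b-2 a peak lay just beyond the 1 kb limit, 1157 to 1256 bp away, in all 6 lists. Mir29b-1, under 1 peak with Mir29a, was marked in all 6 at 23.7, 49.9, 45.4, 52.8, 36.1 and 43.8, and Mir29b-2 in none. The nearest peak to Mir29b-2 lay 2456 to 2615 bp away in Q7SST, Q111SST, loxapine and meclizine. With cyproheptadine and DKI it lay 47384 and 54815 bp away. Mir138-2 was marked in the 5 mutant lists at 78.3, 56.0, 69.5, 39.7 and 63.6 and lay 23015 bp from a peak in Q7SST, while Mir138-1 was unmarked in all 6 with the nearest peak at 30831 bp or more.

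**Figure D3:**
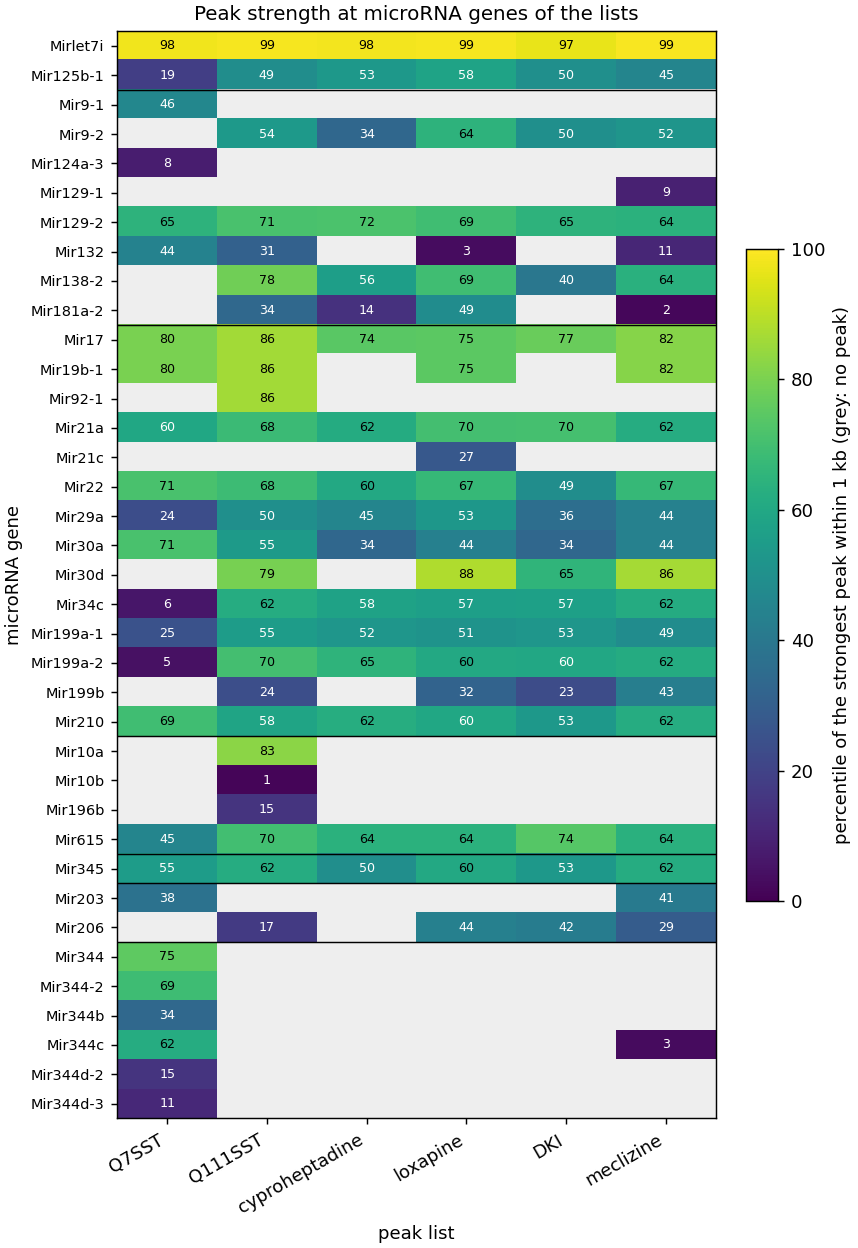
Percentile of the strongest peak within 1 kb (colour and number) for microRNA genes (rows) in each peak list (columns), with grey where no peak was called; lines divide the let-7 group, the neuronal, growth, Hox, Dlk1-Dio3 and other-tissue lists and the microRNA-344 genes. Mirlet7i stands between 96.9 and 99.2 in the 6 lists, Mir9-1 is marked in Q7SST and Mir9-2 in the 5 mutant lists.

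Of 14 members of the let-7, miR-125 and miR-100 group, 2 were marked (14.3%, near the 11.5% of all members), Mirlet7i and Mir125b-1, both in all 6 lists. Of 52 members listed for the imprinted Dlk1-Dio3 region on chromosome 12, Mir345 alone was marked (1.92%), in all 6 lists at 49.6 to 62.1. It has a coding start of Slc25a29 at 1090 bp and lies in Slc25a47, apart from the cluster. Its position is 108836973, ahead of Mir770 in Meg3 at 109563692. The listed microRNAs from Mir770 to Mir410 were marked in no list. Of 43 members known from other tissues, 2 were marked (4.65%). Mir206, a microRNA of skeletal muscle, was marked in Q111SST at 16.8, with loxapine at 43.7, with DKI at 41.9 and with meclizine at 29.0, and Mir203, known from skin, in Q7SST at 37.8 and with meclizine at 40.99. The muscle gene Myod1 was marked in no list.

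Of the 6 Hox cluster microRNAs 4 were marked (66.7%, beside 11.5% of all members). Of these, Mir615 was marked throughout and others in Q111SST alone. Mir10b, Mir615 and Mir10a lie 1004, 1095 and 1102 bp from a coding start. Of all members at 1 to 2 kb, 43.2% were marked in any list. Mir615, within 1095 bp of a start of Hoxc5, was marked in all 6 lists at 45.4, 69.8, 63.7, 63.9, 73.7 and 63.6. Mir10a, Mir10b and Mir196b were marked in Q111SST alone, at 82.6, 1.27 and 14.9. For Mir10a the distance to the nearest peak was 898 bp in Q111SST and 1058 to 1166 bp in the other 5 lists. For Mir10b it was 909 bp in Q111SST, 1061 bp with meclizine, 1137 bp with loxapine and 6826 bp or more in the rest. For Mir196b it was 917 bp in Q111SST and 1574 to 3624 bp elsewhere. For Mir196a-2, counted as unmarked, it was 1007 to 1298 bp over the 6 lists.

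The wild-type and mutant lines were compared under vehicle. Of 1833 members, 110 were marked in both, 39 in Q7SST alone of the pair and 37 in Q111SST alone. These were 2.13% and 2.02% of members, beside 2.65% and 2.16% of all 51229 genes. Of the 147 members marked in Q111SST, 25.2% were unmarked in Q7SST (18.8% to 32.8%), and of the 149 marked in Q7SST 26.2% were unmarked in Q111SST (19.8% to 33.8%). The same shares were 3.80% and 6.35% for protein-coding genes, below those intervals, and 26.9% and 25.3% for lincRNA genes, within them. Of the 39 members, 26 had no Q111SST peak within 5 kb, and of the 37, 20 had no Q7SST peak within 5 kb, a distinction drawn after the values were seen. By the fixed rule, the strongest marked in Q7SST and not in Q111SST were Gm44348, Mir344, Mir344-2, Mir1191b and Mir344c. The strongest in the other direction were Gm22118, Mir5103, Mir6986, Mir92-1 and Mir10a, and at all 5 of these a Q7SST peak lay 1002 to 1264 bp away. Gm44348 was of that kind too, with a distance of 895 bp in Q7SST and 1075 bp in Q111SST.

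The lines also differed in the microRNA-344 cluster on chromosome 7, a group picked out after its values were seen. The cluster holds 13 members with that name in 402 kb, on the minus strand and mostly within long noncoding genes, and each marked member lay 406463 bp or more from the nearest coding start, that of Ndn. Of the 13, 6 were marked in Q7SST, Mir344 at 75.3, Mir344-2 at 69.0, Mir344c at 61.9, Mir344b at 34.0, Mir344d-2 at 15.1 and Mir344d-3 at 11.4. Each of these 6 peaks covered the precursor start. In Q111SST and with cyproheptadine, loxapine and DKI none was marked, and the nearest peak to any of the 13 lay between 119 and 737 kb away. With meclizine Mir344c was marked at 3.04 and no other. Within the 402 kb there were 8 Q7SST peaks, 1 meclizine peak and 0 peaks in the other 4 lists. Gm23873, a provisional microRNA gene in the same stretch, was likewise marked in Q7SST alone, at 29.8.

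The 300 bases at the start of Mir344, the strongest of the group, are shown with each CG in capitals.
Mir344, chr7:61877765-61878064, minus strand: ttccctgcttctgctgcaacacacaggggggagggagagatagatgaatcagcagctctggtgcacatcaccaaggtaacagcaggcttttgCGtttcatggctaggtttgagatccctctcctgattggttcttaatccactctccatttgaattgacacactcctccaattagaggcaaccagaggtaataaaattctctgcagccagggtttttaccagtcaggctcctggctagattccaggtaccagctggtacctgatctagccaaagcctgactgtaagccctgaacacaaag
The window held 1 CG dinucleotide, beside 39 at Mirlet7i, so the Q7SST peak there lay over sequence poor in CG. The seeds of the marked genes were not alike. Mir344, Mir344-2 and Mir344c share the seed GAUCUAG, Mir344d-2 and Mir344d-3 share AUAUAAC with the unmarked Mir344d-1 and Mir344e, and Mir344b has AUUUAGC.

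**Figure D4:**
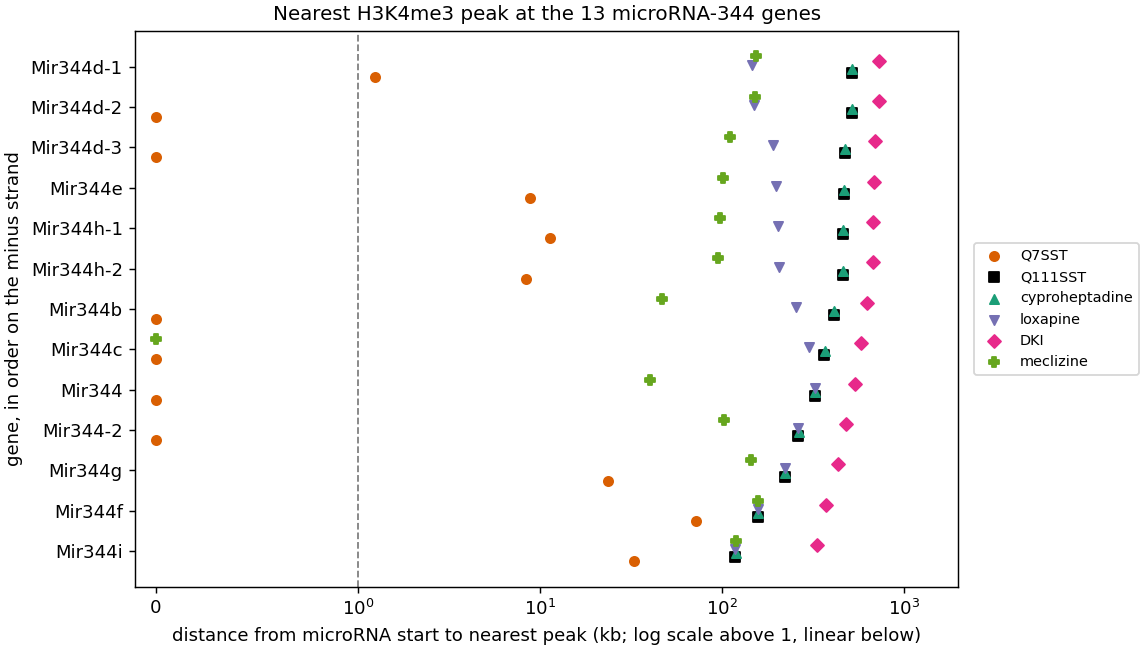
Distance from the start of each of the 13 microRNA-344 genes (rows, in chromosome order) to the nearest peak of each list (x axis, kb, logarithmic above 1 and linear below); symbols are lists and the dashed line is the 1 kb limit. In Q7SST 6 genes lie at 0, and the Q111SST, cyproheptadine, loxapine and DKI symbols all lie between 119 and 737 kb.

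Among members marked in both vehicle lists, more were weaker in Q7SST than stronger. Of 110 members, 19 had a Q7SST percentile lower by 25 points or more and 3 a higher one, beside 2.2% and 2.4% of the 11106 protein-coding genes marked in both. As shares of the 110 these were 17.3% and 2.73%. The median difference, Q7SST minus Q111SST, was -3.90 points for members and -0.92 for the coding genes. With lists of equal size the median for members was -1.73, with a 95% order-statistic interval over members of -5.51 to 0.44 that includes 0, and with percentiles taken among peaks away from coding starts it was -1.87. The members that lay furthest below Q111SST were Mir199a-2, at 4.60 against 70.2, Mir6928, at 2.76 against 66.1, and Mir101c, at 11.4 against 70.7. The 3 that were higher were Mir3086, at 83.5 against 27.6, Mir7011, at 56.7 against 16.8, and Gm23374, at 42.4 against 3.23.

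Genes of the miR-199 and miR-34 families were among those weaker in the wild-type list. Mir199a-2, known from mesenchymal cells, had 4.60 in Q7SST and 70.2, 65.2, 60.2, 59.9 and 61.5 in the mutant lists, and its paralogue Mir199a-1 had 25.2 against 55.5, 52.5, 51.2, 52.6 and 48.6. Mir199b was unmarked in Q7SST and with cyproheptadine, and had 42.9 with meclizine, 31.8 with loxapine, 24.2 in Q111SST and 23.4 with DKI. At Mir199a-2 the mutant peaks were 3271 to 3688 bp wide and covered the start, while the Q7SST peak was 1280 bp wide and ended 488 bp upstream. All 3 genes lie on the strand opposite to a dynamin gene.

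Mir34b and Mir34c, which p53 activates, shared 1 peak with percentiles of 6.14 in Q7SST and 61.9, 57.7, 56.6, 56.8 and 61.5 in the mutant lists. That peak was 444 bp wide in Q7SST and 1522 to 1932 bp in the mutant lists, where it covered the start of the coding gene 4833427G06Rik, 1032 bp from Mir34c, which the Q7SST peak did not. Mir34a, which has the same seed as Mir34b, was unmarked in all 6 lists, and its nearest peak lay 1692 bp away in Q7SST, 1941 bp with loxapine and 7302 bp or more in the rest. In the 5 mutant lists Mir34b and both Mir199a genes were above the wild-type value in every list, with no overlap. Since the mutant lists came from 1 line, they are not 5 independent comparisons. Mir125b-1 and Mir29a, given above, were also among the 19, as were Mir148a and Mir148b, named here after their values were seen, with 36.5 against 75.5 and 9.57 against 39.4 in Q111SST.

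Some members separated all mutant lists from the wild-type list. Marked in Q7SST alone were 28 members, 1.53% of them beside 1.98% of all genes, led after Mir344 and Mir344-2 by Mir1191b at 67.7, Mir6352 at 59.6 and Mir8110 at 57.9. Mir8110 lay 231385 bp or more from a peak in the mutant lists, and Mir1191b 6438 bp or more. Marked in the 5 mutant lists and not in Q7SST were 5 members, 0.273% beside 0.74% of all genes. They were Mir6986, Mir138-2, Gm26377, Mir9-2 and Gm26043. Of these, Mir6986 and Gm26377 had a Q7SST peak 1002 bp away, while for Gm26043 the nearest lay 14667 bp away. Members marked in 1 mutant list alone numbered 14 for loxapine, 8 for Q111SST, 5 for cyproheptadine, 2 for meclizine and 1 for DKI, or 0.764%, 0.436%, 0.273%, 0.109% and 0.0546% of members. The shares of all genes were 0.465%, 0.264%, 0.17%, 0.224% and 0.0644%.

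Each compound list was then set beside Q111SST, which all 4 comparisons share. With cyproheptadine 9 members were gained and 44 lost, 0.491% and 2.40% of members, beside 0.379% and 2.87% of all genes. With DKI 5 were gained and 37 lost, 0.273% and 2.02%, beside 0.289% and 2.69% of all genes. With loxapine 22 were gained and 17 lost, 1.20% and 0.927%, beside 1.13% and 1.14%. With meclizine 12 were gained and 19 lost, 0.655% and 1.04%, beside 0.902% and 0.956%. Few members are marked at all, so the losses are also given as shares of the 147 members marked in Q111SST. These were 29.9% with cyproheptadine (23.1% to 37.8%), 25.2% with DKI (18.8% to 32.8%), 12.9% with meclizine (8.43% to 19.3%) and 11.6% with loxapine (7.35% to 17.7%). For protein-coding genes they were 5.97%, 5.16%, 1.45% and 2.37% in the same order, below the intervals of the members, and for lincRNA genes 25.5%, 25.5%, 10.4% and 8.90%, within them. The 2 lists with the most losses were the 2 shortest. At equal list size the losses came to 19 with meclizine, 21 with DKI, 24 with loxapine and 25 with cyproheptadine, so that this order was not kept.

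**Figure D5:**
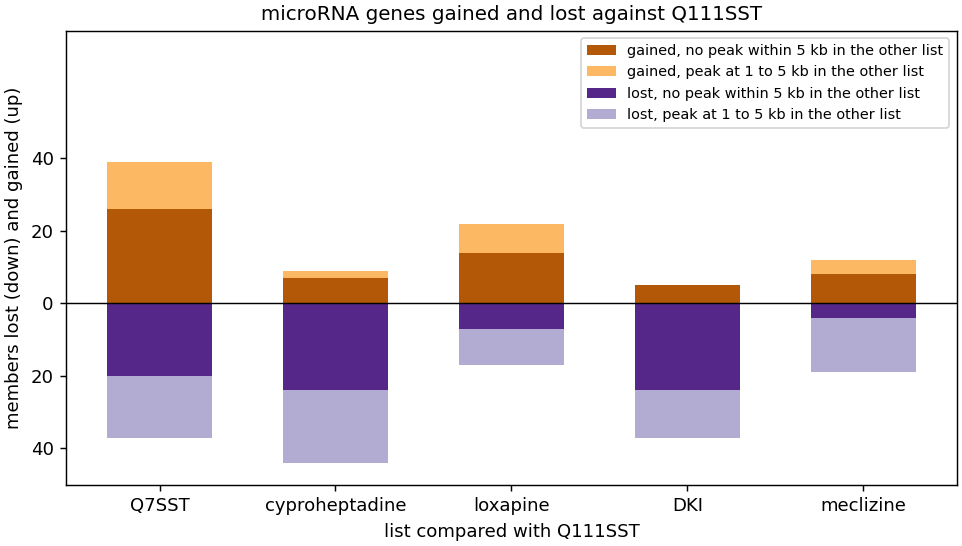
Number of members gained (bars up) and lost (bars down) in each list against Q111SST (x axis), divided by whether the list without the mark had no peak within 5 kb (dark) or a peak at 1 to 5 kb (light). Q7SST has the most gains, 39, and cyproheptadine the most losses, 44.

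Some losses had a compound peak close by, within 2 kb, and others had none within 5 kb. The first kind outnumbered the second with meclizine and loxapine, and the second outnumbered the first with cyproheptadine and DKI. A peak of the compound list lay within 2 kb of the start for 13 of 19 lost members with meclizine, 10 of 17 with loxapine, 14 of 44 with cyproheptadine and 8 of 37 with DKI. With no peak within 5 kb the losses were 4, 7, 24 and 24 in the same order, and the gains 8, 14, 7 and 5. Gm22118 led the losses of all 4 lists at 99.3 in Q111SST, and its peak lay 935 bp away there and 1067 to 1208 bp in the compound lists. Mir5103, Mir92-1, Mir10a and Mir19b-1, the other leading losses, were of the same kind, with compound peaks 1025 to 1166 bp away in the lists that lost them.

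The leading gains held both kinds. With cyproheptadine these were Gm22862 at 80.5, Mir6236 at 64.5 and Mir7079 at 55.1, and Mir6236, gained also with DKI at 39.7, lay 23200 bp from a peak in Q111SST. With loxapine they were Gm24112 at 89.2, Gm24245 at 60.2 and Mir139 at 56.6. Mir139, whose nearest coding start is that of Pde2a, had a loxapine peak 462 bp from its start and no peak within 23809 bp in any other list. With DKI the others were Mir3097 at 28.1 and Gm24187 at 18.5, and with meclizine Gm44348 at 99.3, Mir7117 at 54.2 and Mir203 at 40.99. At Mir203 the nearest Q111SST peak lay 163580 bp away, and at Gm44348 1075 bp.

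Strength was compared at members marked in both Q111SST and a compound list, and its median change was most negative in the 2 shortest lists. The median change, list minus Q111SST, was -8.97 points with DKI, -6.30 with cyproheptadine, -3.33 with meclizine and -1.72 with loxapine, and for protein-coding genes -6.64, -3.83, -1.63 and -0.45. Over all members marked in a list, the median percentile itself was 63.7 in Q111SST, 61.7 with cyproheptadine, 60.2 with loxapine, 57.6 with meclizine and 55.1 with DKI. At equal list size the median changes for members were -6.64 with loxapine, -1.68 with cyproheptadine and -0.9997 with DKI, so that the order of these compounds was reversed. Percentiles higher by 25 points or more were found at 1 of 110 members with DKI, 0 of 103 with cyproheptadine, 1 of 128 with meclizine and 6 of 130 with loxapine, beside 0.429%, 0.313%, 0.589% and 0.763% of coding genes. Percentiles lower by as much were found at 13, 9, 6 and 6 members in the same order, beside 8.63%, 4.25%, 0.844% and 1.39% of coding genes.

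The largest single changes were at microRNAs of little known function. The largest rises over the 4 compounds were all with loxapine, at Gm22774 from 22.4 to 63.3, at Mir6907 from 4.91 to 41.7 and at Gm27288 from 12.9 to 43.7. The largest falls were at Mir7660 with cyproheptadine, from 55.5 to 10.1, at Gm47284 in the ribosomal protein gene Rpl27a with cyproheptadine, from 80.1 to 37.9, and at Mir7031 with meclizine, from 45.2 to 3.04. Of the genes in the lists of known microRNAs, Mir132 and Mir212 were lower with loxapine, at 3.40 against 30.9, and Mir206 was higher with loxapine by 26.9 points and with DKI by 25.1. Mir138-2 was lower with DKI, at 39.7 against 78.3, and Mir181a-2, from the neuronal list, was lower with meclizine, at 1.57 against 33.9. With 1 list per condition none of these changes could be set against replicate error.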

How the data were processed

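The sources were 6 deposited lists of H3K4me3 peaks, 1 per condition, in which the authors gave each peak a whole-number score from 10 to 1734 whose scale is not stated. The submitters' processing notes name mm10, Trimmomatic 0.36, Bowtie2, SAMtools 1.3 and MACS2; thresholds, input controls and pooling of replicates are not given in the sources used here. Read depth is therefore unknown. Groups were taken from the labels.

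No peak ended beyond a chromosome of GRCm38, and coordinates, counted from 1, are on that build. Members came from GENCODE M21, with the 5′ end of the gene as the start. A peak needed 1 bp of overlap with the window of 1 kb either side. Scores were ranked within each list, with ties at their mean rank, and members were compared with Q111SST as gained, lost or, where marked in both, changed by 25 percentile points or more. No test between conditions was possible with 1 list each. Shares carry 95% Wilson intervals, which cover counting error only. Loci were members on 1 strand within 10 kb. Sequences were read from RefSeq on GRCm38.p6. Marking was tested on simulated data. The work used matplotlib 3.10.9, scipy 1.17.1, pandas 2.3.3 and numpy 2.4.6 under Python 3.11.15.

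The members and gene lists were chosen with earlier results of these data known. Named genes were the marked members of the gene lists, the 10 strongest in all 6 lists, up to 5 per direction between the vehicle lists and between Q7SST and all mutant lists, 3 per direction for each compound, the 3 largest changes per direction, identical copies with unequal marks, and the members nearest the 1 kb limit. A gene among the 10 strongest is not reported here. Alternatives were other windows, overlaps, thresholds, list sizes, distance rules, joined loci and the leaving out of chromosome 18.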

Additional observations from a re-analysis of the deposited data

How the results depend on the processing

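The 30 shares, counts and medians were recomputed under 10 alternatives where each applied, and the change of strength also with percentiles taken among peaks more than 1 kb from a coding start. One further count was added after the data were seen. No paired analysis was possible because no condition had more than 1 list. No median change turned its sign. Depth behind the lists is unknown, a percentile depends on how many weak peaks a list holds, and 1 list per condition leaves no replicate error for any difference. Counting coding starts over all transcripts of coding genes, which left 1717 members, joining members to 1538 loci, and leaving out chromosome 18 kept every share and median within its interval and every count within 1.5 times.

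When the peak had to cover the precursor start, the shares marked were 3.33% in Q7SST, 3.16% in Q111SST and with meclizine, 3.06% with loxapine, 2.24% with cyproheptadine and 2.18% with DKI, with 24 members in all 6 lists and 22 in 1 list. Gains and losses were then 17 and 14 in Q7SST, 6 and 6 with meclizine, 4 and 6 with loxapine, 3 and 20 with cyproheptadine and 2 and 20 with DKI, and the median change with loxapine was -4.56. With a window of 5 kb the shares were 24.7%, 24.2%, 20.9%, 25.5%, 20.2% and 23.8% in the order Q7SST, Q111SST, cyproheptadine, loxapine, DKI, meclizine, kept below, with 305 members in all 6 lists and 114 in 1 list. Gains and losses were then 81 and 73 in Q7SST, 50 and 26 with loxapine, 27 and 87 with cyproheptadine, 25 and 33 with meclizine and 17 and 91 with DKI. A wider window counts more genes by construction.

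With lists of equal size the shares of Q7SST and loxapine were 6.71% and 6.44%, cyproheptadine lost 25 members, and DKI gained 10 and lost 21. The median percentiles of Q111SST and loxapine were then 56.2 and 49.97, and the median changes -6.64 with loxapine, -1.68 with cyproheptadine and -0.9997 with DKI. With percentiles taken among peaks away from coding starts, the median change with DKI was -6.72. With the stricter threshold the shares were 4.80%, 5.18%, 3.71%, 5.35%, 3.76% and 4.96%, with 50 members in all 6 lists and 36 in 1 list. Q7SST then gained 17 and lost 24, cyproheptadine gained 2 and lost 29, loxapine gained 14 and lost 11, DKI gained 0 and meclizine lost 12, and the median percentiles, ranked among the fewer peaks, were 46.2, 42.5, 42.2, 40.4, 47.1 and 43.1.

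With an overlap of 200 bp the shares of Q111SST and loxapine were 6.82% and 6.98%, loxapine gained 14 and lost 11, and meclizine lost 11. Members more than 5 kb from a coding start, of which there were 1536, had shares of 5.99%, 5.34%, 3.84%, 5.66%, 3.91% and 5.27%, with 40 in all 6 lists and 12 lost with meclizine, and median percentiles of 44.4, 53.9, 46.5, 52.8, 49.9 and 43.8. The 1549 members also more than 1 kb from every other transcript start had shares of 6.52%, 6.07%, 4.78%, 6.52%, 4.58% and 5.75%, with 54 in all 6 lists and 29 lost with cyproheptadine. Counting only members with no peak within 5 kb in the other list, the added count, Q7SST lost 20, cyproheptadine lost 24, loxapine gained 14 and lost 7, DKI lost 24 and meclizine lost 4. The cause of these shifts was not tested.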

Other observations

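MicroRNA genes of chromosome X, which the choice of members left out, had few marks. By the same rule there were 135 such genes among 142, of which 2 were marked in any list and 0 in all 6, beside 11.5% and 4.80% of the members on chromosomes 1 to 19. Mir3473a was marked in 5 lists, with percentiles of 62.6 with meclizine, 61.4 with loxapine, 53.4 with cyproheptadine, 46.2 in Q111SST and 35.2 in Q7SST, and was unmarked with DKI. Mir7673 was marked in Q111SST at 3.23 and with loxapine at 35.8. Mir221 and Mir222, which favour proliferation, Mir98 and Mirlet7f-2 of the let-7 family, and Mir106a and Mir363 were unmarked in all 6 lists.

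Members that carry 75% or more of repeat sequence within 1 kb of the start numbered 59, of which 2 were marked in any list, beside 156 of the 968 members with less than 25%. By chromosome, the share of members marked in any list ran from 3.68% of 136 on chromosome 12 to 22.5% of 80 on chromosome 10.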
